A study of Mus musculus with 2 samples.

Results

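Cycling immune cells were taken as the cell barcodes that carried at least 3 UMIs (unique molecular identifiers, counted transcripts) of Mki67 and Top2a together. They also had at least 1 UMI of Ptprc, the gene of CD45, fewer than 20 UMIs of Col1a1, Col1a2, Col3a1 and Sparc together, at least 1000 UMIs in all and under 10% mitochondrial UMIs. This rule found 214 of 10533 barcodes, 120 of 5358 in the WT library and 94 of 5175 in the CD94-KO library. The data were single-cell 3′ RNA counts of live CD45+ cells sorted from subcutaneous tumours of C57BL/6J mice aged 6 to 8 weeks. One library came from wild-type (WT) mice and the other from mice lacking CD94 (CD94-KO), and the series text gives 5 tumour-bearing mice per data set. The tumour line and the way in which CD94 was deleted were not given in the sources used here. With 1 library per genotype there were no replicates, so no difference between the libraries could be tested, and genotype, mouse, tumour and library preparation cannot be told apart. Values in brackets are 95% intervals, which take in counting error and nothing else. The 8 barcode sequences that occurred in both libraries included no cycling barcode.

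Lineages were assigned by marker UMIs, each rule on its own. T barcodes had at least 2 UMIs of Cd3d, Cd3e and Cd3g, which encode chains of the T cell receptor complex. NK barcodes had at least 2 UMIs of Ncr1, Klrb1c and Klre1, genes of natural killer (NK) cell receptors, and no Cd3 UMI. Macrophage barcodes had at least 3 UMIs of C1qa, C1qb, C1qc and Csf1r, the complement C1q chains and the receptor for the growth factor CSF1. The members were chosen by the measured UMIs of Mki67, Top2a, Ptprc and the 4 collagen-rule genes, and the lineages by the genes just named, so the levels of these genes are not results. Some barcodes met both the T or NK rule and the macrophage rule and are also given apart. The labels call the sorted cells lymphocytes, but the macrophage rule held the most barcodes, 1199 of 2791 immune barcodes in WT and 2067 of 4083 in CD94-KO. Of the 120 cycling WT barcodes, 33 met the T rule only, 16 the NK rule only, 23 the macrophage rule only, 29 the T and macrophage rules, 4 the NK and macrophage rules and 15 no lineage rule. The 94 cycling CD94-KO barcodes split into 19, 12, 26, 14, 7 and 16 in the same order.

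A dividing cell passes through G1, copies its DNA in S phase, and then goes through G2 into mitosis. Entry into S phase is driven by E2F transcription factors, which switch on the MCM helicase, nucleotide synthesis enzymes and the replication machinery, and replication-dependent histones are made to package the new DNA. Genes of G2 and mitosis, including the rule genes Mki67 (a coat protein of mitotic chromosomes) and Top2a (the topoisomerase that untangles replicated DNA), are held in check outside these stages by the DREAM complex acting on CHR promoter elements. In tumours, T and NK cells divide after antigen or cytokine stimulation, while macrophages arise largely from blood monocytes, with some local division.

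The promoters of the rule genes and of partners in each stage are shown with both kinds of element because the share of genes with each element differed between the S and G2/M lists used below. A gene counts as holding a word if any of its RefSeq starts does. Each window runs from 250 bases before to 50 bases after a RefSeq transcription start (GRCm38.p6) and is written along the gene's strand. Capitals mark TTTGAA or its reverse complement TTCAAA (the CHR core) and the E2F words TTTCCCGC, TTTCGCGC, TTTGCCGC and TTTGGCGC or their reverse complements, which may overlap each other. Mki67 lies at chr7:135716330-135716629 (minus strand), Top2a at chr11:99024140-99024439 (minus strand), Cdk1, the kinase that drives mitosis, at chr10:69352863-69353162 (minus strand), Plk1, a mitotic kinase, at chr7:122159185-122159484 (plus strand), and Mcm6, a subunit of the replicative helicase, at chr1:128359656-128359955 (minus strand).
Mki67 promoter: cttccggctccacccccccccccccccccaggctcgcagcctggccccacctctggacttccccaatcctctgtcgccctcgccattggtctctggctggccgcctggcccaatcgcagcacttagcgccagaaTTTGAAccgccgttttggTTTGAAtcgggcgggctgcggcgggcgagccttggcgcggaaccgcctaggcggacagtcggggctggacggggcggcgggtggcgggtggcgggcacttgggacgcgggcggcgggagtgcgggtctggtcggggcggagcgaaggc
Top2a promoter: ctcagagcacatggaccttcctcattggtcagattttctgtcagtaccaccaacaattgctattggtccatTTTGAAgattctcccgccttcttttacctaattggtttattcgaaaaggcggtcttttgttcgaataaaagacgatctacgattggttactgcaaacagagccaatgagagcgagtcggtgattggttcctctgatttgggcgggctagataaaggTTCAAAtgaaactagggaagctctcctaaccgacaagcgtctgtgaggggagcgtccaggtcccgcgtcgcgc
Cdk1 promoter: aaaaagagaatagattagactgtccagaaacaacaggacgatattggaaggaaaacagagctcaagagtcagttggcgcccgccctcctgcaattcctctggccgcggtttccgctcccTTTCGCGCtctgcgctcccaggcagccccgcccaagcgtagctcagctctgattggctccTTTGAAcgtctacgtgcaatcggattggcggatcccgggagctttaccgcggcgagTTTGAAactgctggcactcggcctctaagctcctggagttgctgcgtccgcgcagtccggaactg
Plk1 promoter: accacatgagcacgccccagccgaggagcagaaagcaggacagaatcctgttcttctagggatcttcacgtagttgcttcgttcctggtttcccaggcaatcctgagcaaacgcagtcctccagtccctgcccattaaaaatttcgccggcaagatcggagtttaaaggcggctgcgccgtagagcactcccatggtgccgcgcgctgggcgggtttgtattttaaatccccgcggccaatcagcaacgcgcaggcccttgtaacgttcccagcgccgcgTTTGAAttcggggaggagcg
Mcm6 promoter: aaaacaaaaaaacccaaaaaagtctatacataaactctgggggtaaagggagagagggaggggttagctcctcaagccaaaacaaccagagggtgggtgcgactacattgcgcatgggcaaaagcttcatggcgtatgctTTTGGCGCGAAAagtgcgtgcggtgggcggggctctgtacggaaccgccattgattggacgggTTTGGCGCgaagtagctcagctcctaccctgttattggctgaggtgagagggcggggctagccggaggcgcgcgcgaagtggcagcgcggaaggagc
The Mki67, Top2a and Cdk1 windows held 2 CHR matches each and the Plk1 window 1, while the Mcm6 window held none and had 3 E2F matches. The Cdk1 window also held 1 E2F match. A CHR match was present in 43 of the 62 G2/M-list genes with a promoter sequence (69.4%), in 6 of 37 S-list genes (16.2%) and in 20.2% of all 27025 genes. An E2F word was present in 16 of 37 S-list genes (43.2%), in 6 of 62 G2/M-list genes (9.68%) and in 2.60% of all genes. A match describes the letters only, and no binding was measured here.

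Klrd1, which encodes CD94, was still counted in the CD94-KO library. In cycling NK barcodes it had 227 UMIs (590 CPM, a gene's UMIs scaled to the summed UMIs of the barcodes in question) in WT and 53 UMIs (201 CPM) in CD94-KO, a CPM ratio of 0.341 [0.248 to 0.461]. It was detected in 15 of 16 WT and 12 of 12 CD94-KO cycling NK barcodes. In NK barcodes with no Mki67 or Top2a UMI it stood at 620 and 298 CPM. In cycling T barcodes Klrd1 had 346 CPM in WT and 273 in CD94-KO, a ratio of 0.790 [0.603 to 1.03]. Since the deleted stretch is not described in the labels, 3′ tags lying outside it cannot serve as a check of genotype.

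Where the threshold fell matters for what the members are. Mki67 and Top2a together had exactly 3 UMIs in 44 of 120 WT and 33 of 94 CD94-KO members, and 101 and 103 further immune barcodes had exactly 2 and were left out. At least 12 UMIs were found in 36 and 19 members. The G2/M list (73 genes of G2 and mitosis, without Mki67 and Top2a) summed to 878 CPM in WT and 842 CPM in CD94-KO immune barcodes with no Mki67 or Top2a UMI. It reached 1378 and 1293 CPM at exactly 3 UMIs, and 6932 and 7494 CPM at 12 or more. Members at the threshold therefore lay much nearer to the barcodes without either transcript than to the members with many. The spread among members was wide: the G2/M list took between 3.47 and 167 of every 10000 UMIs in WT members, with a median of 26.4, and between 3.49 and 172 in CD94-KO members, with a median of 19.1.

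**Figure D1:**
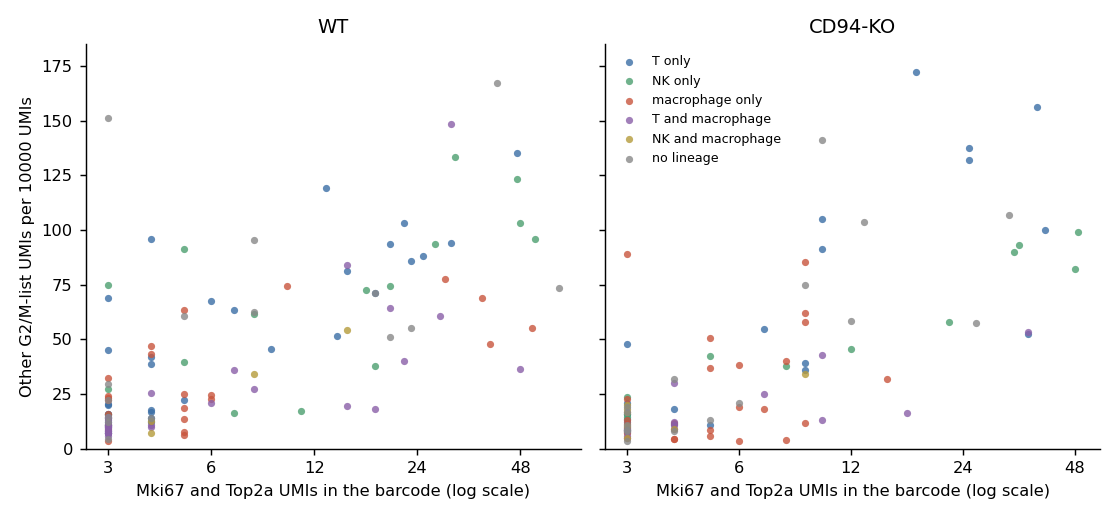
Each point is 1 cycling barcode. The x axis gives its Mki67 and Top2a UMIs on a log scale and the y axis its G2/M-list UMIs per 10000 UMIs, without Mki67 and Top2a, coloured by the lineage rules met. Many barcodes with 3 UMIs lie low, and the values reach 167 in WT and 172 in CD94-KO.

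At exactly 3 Mki67 and Top2a UMIs the G2/M list was above its level at 0 UMIs in the barcodes of 1 lineage rule, with few barcodes behind each value. In barcodes of the T rule only, the G2/M list stood at 2038 CPM in WT and 2169 CPM in CD94-KO at exactly 3 UMIs, against 1389 and 1389 CPM at 0 UMIs. The median T barcode differed less, with 15.1 and 16.1 UMIs of the list per 10000 against 13.1 and 13.8, so a few barcodes carried much of the T excess. In barcodes of the macrophage rule only the G2/M list stood at 1525 and 1395 CPM against 707 and 724 CPM. In those of the NK rule only it stood at 4398 (3 barcodes) and 1755 CPM (4 barcodes) against 1209.6 and 1245 CPM. In barcodes that met both the T and the macrophage rule, it stood at 947 and 851 CPM at exactly 3 UMIs. At 0 UMIs it stood at 950 and 978 CPM, so these barcodes showed no excess of the G2/M list. Their S list stood at 989 CPM in WT and 691 CPM in CD94-KO, against 706 and 650 CPM at 0. Among barcodes with exactly 3 UMIs these were the deepest, with a median of 34785 UMIs in WT and 32614 in CD94-KO. They made up 15 of the 44 WT and 5 of the 33 CD94-KO members with exactly 3 UMIs. In WT cycling barcodes of both rules the macrophage markers summed to 4580.4 CPM and the T markers to 1015 CPM, and in CD94-KO to 4070.1 and 889 CPM. Both lists hold genes of the rules, so the presence of both follows from the choice of barcodes and is no result. Whether these barcodes were pairs of cells was not tested.

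**Figure D2:**
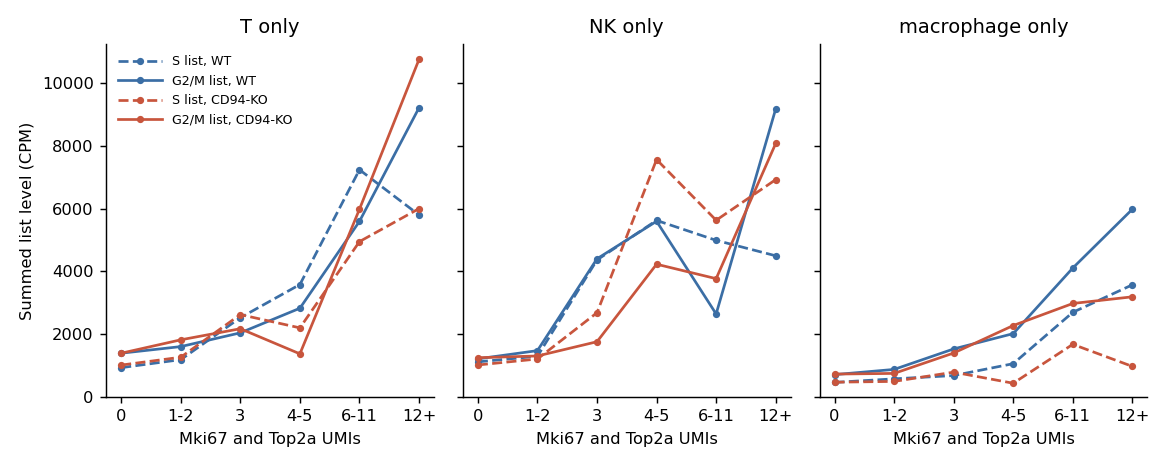
Summed levels of the S list (dashed) and the G2/M list (solid) in CPM, by the number of Mki67 and Top2a UMIs in a barcode, for barcodes that met 1 lineage rule, WT in blue and CD94-KO in red. The climb is not steady in every lineage; T barcodes go from 1389 CPM of the G2/M list at 0 UMIs to 9211 (WT) and 10752 (CD94-KO) at 12 or more, and CD94-KO macrophages reach 3186 in the 1 barcode of that bin.

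The genes of DNA replication, chromatin packaging and mitosis were higher in cycling barcodes than in barcodes of the same lineage with no Mki67 or Top2a UMI, as the choice of members would bring about. These comparisons use barcodes that met 1 lineage rule and are descriptions. The S list (50 genes of the G1/S transition and DNA replication) stood at 4468 against 928 CPM in WT T barcodes and at 4621 against 1010.4 CPM in CD94-KO T barcodes. In NK barcodes it stood at 4680.4 against 1113 CPM in WT and at 5989 against 1014 CPM in CD94-KO. In macrophages it stood at 1797 against 459 CPM in WT and at 1054 against 465 CPM in CD94-KO. Macrophage members thus carried the lowest S-list level of the lineages in both libraries. Among the S-list genes, Pcna, the sliding clamp of the replication fork, had 340.3 against 91.6 CPM in WT T, 255 against 101 in WT NK and 181 against 80.4 in WT macrophage barcodes. In CD94-KO the pairs were 289.6 and 121 CPM in T, 409.9 and 104 in NK and 113 and 95.4 in macrophages. Pcna was therefore only 1.18-fold [0.886 to 1.55] higher in CD94-KO cycling macrophages. Tyms, thymidylate synthase, was 17.7-fold [11.4 to 28.2] and 9.31-fold [5.14 to 17.2] higher in cycling T barcodes of WT and CD94-KO.

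Replication-dependent histones, whose transcripts are made in S phase, stood at 2895 against 365 CPM in WT T and 4579 against 319.8 CPM in CD94-KO T barcodes. In NK barcodes they stood at 4457 against 477 CPM and 4087 against 486 CPM. Macrophages had far less, 607 against 249 CPM in WT and 408 against 199 CPM in CD94-KO. Hist1h1b, a linker histone, had 289 CPM in cycling WT T, 471 in cycling WT NK and 48.3 in cycling WT macrophage barcodes. Replication-dependent histone transcripts mostly lack a poly(A) tail, so poly(A)-primed 3′ chemistry may count only part of them.

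The G2/M list stood at 5464 against 1389 CPM in WT T and 6629 against 1389 CPM in CD94-KO T barcodes. It was 7327 against 1209.6 CPM in WT NK, 6236 against 1245 CPM in CD94-KO NK, 3169.8 against 707 CPM in WT macrophage and 2395 against 724 CPM in CD94-KO macrophage barcodes. Of its 73 genes, those at least 1.5-fold higher in cycling barcodes numbered 70 in WT T, 69 in CD94-KO T, 71 in WT NK, 67 in CD94-KO NK, 68 in WT macrophages and 66 in CD94-KO macrophages. Over all genes with at least 20 UMIs, the share that was at least 1.5-fold higher was 16.2%, 17.4%, 15.3%, 18.9%, 19.2% and 21.6% in the same order, and the share at least 1.5-fold lower 26.3%, 30.6%, 26.8%, 33.3%, 15.4% and 18.2%. Birc5, which encodes survivin of the chromosomal passenger complex, had 202 against 5.92 CPM in WT T and 234 against 3.25 CPM in CD94-KO T barcodes. Stmn1, a microtubule destabiliser, had 897 against 38.7 CPM in WT T, 1277 against 62.6 in WT NK and 273 against 18.3 in WT macrophage barcodes. The regulators followed the same direction: E2f1 had 39.9 against 4.10 CPM and Foxm1, an activator of mitotic genes, 17.1 against 1.82 CPM in WT T barcodes.

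Quiescence genes were lower in cycling T and NK barcodes and less so in cycling macrophages. The summed level of the 12 genes was 0.452-fold [0.424 to 0.482] in WT T and 0.448-fold [0.414 to 0.485] in CD94-KO T barcodes. In NK barcodes it was 0.477-fold [0.441 to 0.517] and 0.434-fold [0.395 to 0.476]. In macrophages it was 0.744-fold [0.709 to 0.78] and 0.871-fold [0.835 to 0.909]. Klf2, a transcription factor of resting lymphocytes, had 60.8 against 228 CPM in WT T, 94.4 against 192 CPM in CD94-KO T, 98.8 against 303 CPM in WT NK and 56.9 against 279 CPM in CD94-KO NK barcodes. In macrophages Klf2 did not differ by 1.5-fold, with 98.7 against 97.7 CPM in WT and 132 against 127 CPM in CD94-KO. Btg1, an antiproliferative gene, had 722 against 1855 CPM in WT T and 1346 against 2138 CPM in WT macrophage barcodes. Genes of another cell type moved the same way in T barcodes: macrophage programme genes stood at 1122 against 5283 CPM in WT and 801 against 4119 CPM in CD94-KO. Cycling T barcodes were also deeper, with a median of 13655 against 6270.0 UMIs in WT, and the part of either in the quiescence ratio was not tested.

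Genes that supply nucleotides were higher in cycling barcodes of each lineage. Genes of nucleotide and one-carbon metabolism summed to 1519 against 667 CPM in WT T and 1373 against 714 CPM in CD94-KO T barcodes. The ratio was 1.55 [1.40 to 1.71] in WT NK and 2.28 [2.06 to 2.52] in CD94-KO NK, and 1.52 [1.38 to 1.68] in WT and 1.36 [1.23 to 1.51] in CD94-KO macrophages. Shmt2 and Mthfd2, mitochondrial enzymes of the folate cycle, had 51.3 against 17.3 CPM and 70.3 against 23.7 CPM in WT T barcodes. NK receptor genes were lower in cycling NK barcodes. They summed to 3253 against 5133 CPM in WT and 2960.3 against 4997 CPM in CD94-KO, and Klra4, a Ly49 receptor of mature NK cells, had 46.8 against 472 CPM in WT and 72.1 against 388 CPM in CD94-KO. Gzma, granzyme A, had 2002 against 4913 CPM in WT and 3340 against 6083 CPM in CD94-KO NK barcodes. Cycling NK barcodes were also deeper, with medians of 24512 against 6707.5 UMIs in WT and 21331 against 5601 in CD94-KO. The part of depth in these NK values was not tested.

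Monocyte markers had a lower sum in cycling than in other macrophages, though by less than 1.5-fold. They summed to 10754 against 13879 CPM in WT and 10705 against 13277 CPM in CD94-KO, and Plac8, a gene of circulating monocytes, had 894 against 2155 CPM in WT and 1521 against 2563 CPM in CD94-KO. The 7 macrophage markers outside the macrophage rule went both ways, with sums of 1902 against 2141 CPM in WT and 2556 against 2516 CPM in CD94-KO. Trem2, a lipid receptor, had 170.04 against 111 CPM in WT and 197 against 111 CPM in CD94-KO, whereas Fcgr1, an Fc receptor, had 159.5 against 226 CPM and 182 against 279 CPM. Outside the cycle lists, the 10 genes with the largest excess in both libraries were Cks1b, Ccdc34, Nucks1, Sae1, Rangap1, Lsm2, Tmpo, Hmgn1, Pf4 and C1qc, the last of which is a rule gene and no result. Cks1b, a partner subunit of cyclin-dependent kinases, had 75.6 against 10.0 CPM in WT and 90.0 against 6.88 CPM in CD94-KO. Nucks1, a chromatin protein, had 304 against 85.3 CPM and 291 against 90.1 CPM. Pf4, a chemokine gene also known from tissue macrophages, had 414 against 117 CPM in WT and 358 against 161 CPM in CD94-KO, with 45.7% and 38% of its cycling UMIs in 1 barcode. Timd4 and Lyve1, markers of tissue-resident macrophages named after the values had been seen, had no UMI in cycling macrophages of either library.

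The balance between S and G2/M transcripts varied, and its order between lineages depended on the measure. Of the UMIs on the S and G2/M lists together, the S list took 45.0% [43.6 to 46.3] in WT and 41.1% [39.4 to 42.7] in CD94-KO cycling T barcodes. In NK barcodes it took 39.0% [37.6 to 40.4] in WT and 49.0% [47.3 to 50.7] in CD94-KO. In macrophages it took 36.2% [34.2 to 38.2] in WT and 30.6% [28.3 to 32.9] in CD94-KO. The CD94-KO value was the lower in T barcodes and macrophages and the higher in NK barcodes. At 5 or more Mki67 and Top2a UMIs the T values were 40.9% and 39.0%. As a median over barcodes the macrophage values turned round, 22.1% in WT and 29.0% in CD94-KO, while the NK values were 45.7% and 55.8% and the T values 45.5% and 41.2%. With barcodes of 2 lineage rules counted too, WT macrophages (40.3%) and WT NK barcodes (39.8%) were close. Single barcodes ranged from 8.62% to 75.4% in CD94-KO T and from 0% to 65.4% in WT macrophages. The intervals treat UMIs as independent and so leave out the spread between barcodes.

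The cycling share was higher in T than in macrophage barcodes of both libraries. In WT, 62 of 629 T barcodes were cycling (9.86% [7.64 to 12.5]), 20 of 378 NK barcodes (5.29% [3.26 to 8.05]) and 56 of 1199 macrophage barcodes (4.67% [3.55 to 6.02]). In CD94-KO the shares were 33 of 529 (6.24% [4.33 to 8.65]), 19 of 533 (3.56% [2.16 to 5.51]) and 47 of 2067 (2.27% [1.68 to 3.01]). The T share was 2.11 times [1.49 to 2.99] the macrophage share in WT and 2.74 times [1.78 to 4.24] in CD94-KO. The CPM of Mki67 and Top2a, made of the same UMIs and therefore no separate evidence, was 1.99 and 3.46 times as high. Barcodes of both rules counted on both sides here, while the intervals treat the sides as independent. Between barcodes of the T rule only and of the macrophage rule only, the share ratios were 3.20 [1.90 to 5.38] and 3.56 [1.99 to 6.37]. No order is read between T and NK barcodes, since in WT the T share was the higher (1.86 times) but the CPM the lower (0.771 times). Among neutrophils, which do not divide, 0 of 15 WT and 0 of 40 CD94-KO barcodes were cycling, with exact upper limits of 21.8% and 8.81%. Neutrophil barcodes were shallow, with medians of 4136 and 3395.5 UMIs. Among mature regulatory dendritic cells, which are also thought not to divide, 4 of 89 (4.49% [1.24 to 11.1]) and 3 of 129 (2.33% [0.482 to 6.65]) passed the rule at medians of 10126 and 10329 UMIs. The macrophage shares, at medians of 12109 and 10984 UMIs, lie within these wide intervals. With a threshold of 6 UMIs there were 20 of 1199 and 17 of 2067 macrophage barcodes, against 1 of 89 and 0 of 129 of these dendritic cells.

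**Figure D3:**
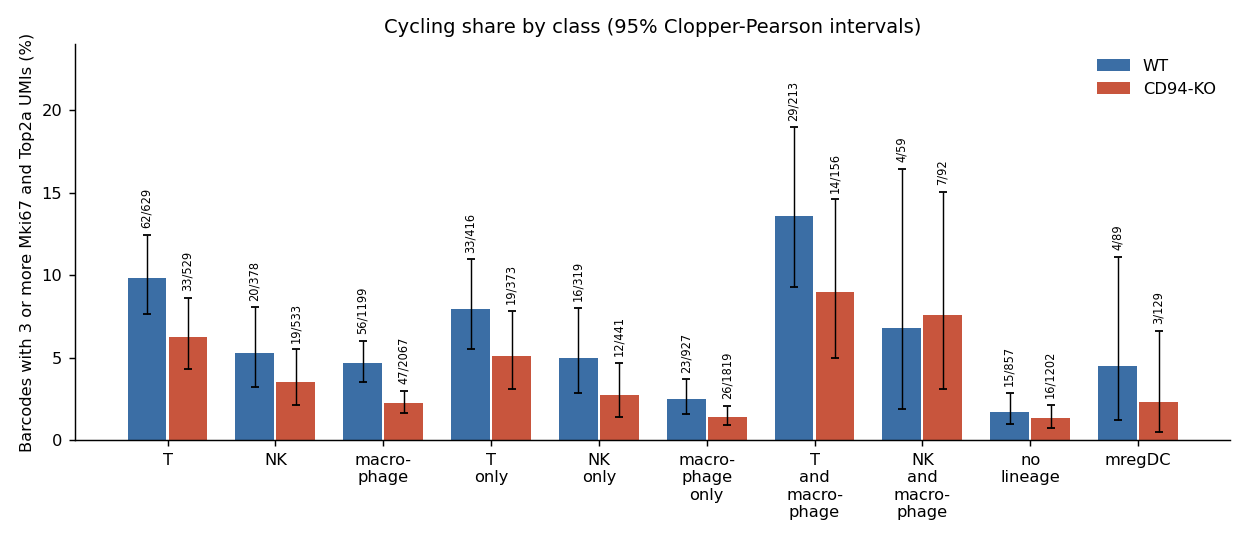
Bars give the percentage of barcodes with at least 3 Mki67 and Top2a UMIs in each class, WT in blue and CD94-KO in red, with 95% Clopper-Pearson intervals and the counts above them. Among the classes drawn, the CD94-KO bar is the lower except for barcodes of the NK and macrophage rules together (4 of 59 and 7 of 92), and the intervals of the libraries overlap except for macrophages.

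The cycling share climbed with depth. In WT T barcodes the share was 1 of 107 (0.935%) at under 5000 UMIs, 9 of 223 (4.04%) from 5000 to under 10000, 17 of 160 (10.6%) from 10000 to under 20000 and 35 of 139 (25.2%) at 20000 or more. The same climb was seen in CD94-KO T barcodes, from 0 of 133 to 16 of 92 (17.4%), and in WT macrophages, from 2 of 132 (1.52%) to 38 of 254 (15.0%). Members had a median of 21362 UMIs in WT and 18098.5 in CD94-KO, against 8677 and 8780.0 UMIs for other immune barcodes. Dividing cells hold more RNA, and deeper barcodes also cross a fixed threshold more readily. These cannot be told apart from the counts alone.

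All 3 lineages had a lower cycling share in the CD94-KO library. The CD94-KO share over the WT share was 0.487 [0.333 to 0.713] for macrophages, 0.633 [0.422 to 0.950] for T and 0.674 [0.365 to 1.24] for NK barcodes. The CPM of Mki67 and Top2a over all macrophage barcodes, from the same UMIs as the share, had a ratio of 0.523 [0.469 to 0.582]. Mature regulatory dendritic cells also had a lower share in CD94-KO (2.33% against 4.49%), and its part in the macrophage ratio was not tested. For NK barcodes the CPM ratio was 0.636 [0.553 to 0.731]. For T barcodes the CPM ratio was 0.909 [0.812 to 1.02], close to 1. Barcodes of the T rule only had a share ratio of 0.642 [0.372 to 1.11] but a CPM ratio of 1.04 [0.901 to 1.20], so no order between the libraries is read for them. With a threshold of 2 Mki67 and Top2a UMIs per 10000, in place of 3 UMIs, the T shares were 10.3% and 10.2%, a ratio of 0.988 [0.702 to 1.39]. Barcodes of at least 5000 UMIs were also thinned to 5000, which left out 132 WT and 195 CD94-KO macrophage barcodes. The macrophage ratio was then 0.228 [0.0887 to 0.586], from 15 of 1067 and 6 of 1872 barcodes. Without thinning, barcodes of the macrophage rule only gave 0.576 [0.331 to 1.004].

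Within the macrophage rule, 23 of 927 WT (2.48%) and 26 of 1819 CD94-KO (1.43%) barcodes of that rule only were cycling. Among barcodes that met the T and macrophage rules the shares were 29 of 213 (13.6% [9.31 to 19.0]) and 14 of 156 (8.97% [4.99 to 14.6]). At 6 or more Mki67 and Top2a UMIs, macrophage barcodes of 1 rule numbered 7 of 927 and 11 of 1819, and the ratio of these shares was 0.801 [0.311 to 2.06].

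Among T barcodes that did not meet the macrophage rule, those with CD8 genes but no Cd4 or Foxp3 UMI had the highest cycling share in WT. Each barcode entered a single group, and any barcode with a Foxp3 UMI was placed under Foxp3, whatever co-receptor genes it carried. Cd8a and Cd8b1 encode the CD8 co-receptor of cytotoxic T cells. Of the barcodes with either gene and no Cd4 or Foxp3 UMI, 15 of 76 were cycling in WT (19.7% [11.5 to 30.5]). In CD94-KO, 5 of 53 were (9.43% [3.13 to 20.7]). Of those with Cd4 and no CD8 gene or Foxp3 UMI, 6 of 68 (8.82%) and 3 of 53 (5.66%) were cycling. Of those with Foxp3, the factor of regulatory T cells, 5 of 70 (7.14% [2.36 to 15.9]) were cycling in WT and 0 of 36 in CD94-KO, which allows up to 9.74% by the exact interval. In WT the CD8 barcodes were also deeper, with a median of 10229.5 UMIs against 6994 for Cd4, 6239 for Foxp3 and 6270.0 for barcodes with none of these genes, and the part of depth in the order was not tested. Of those with none of these genes, 7 of 195 (3.59%) were cycling in WT and 11 of 228 (4.82%) in CD94-KO. They formed 21.2% of the WT and 57.9% of the CD94-KO cycling T barcodes. This split was chosen after the values had been seen.

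The cycling T barcodes of CD94-KO carried NK genes more often. Of 19, 15 had at least 2 UMIs of Ncr1, Klrb1c and Klre1 (78.9% [54.4 to 93.9]), against 11 of 33 in WT (33.3% [18.0 to 51.8]). Among all T barcodes of this kind the proportions were alike, 22.5% in CD94-KO and 19.5% in WT. T barcodes with these NK genes had a cycling share of 11 of 81 in WT (13.6% [6.98 to 23.0]) and 15 of 84 in CD94-KO (17.9% [10.4 to 27.7]). T barcodes with 0 or 1 UMI of them had 22 of 335 in WT (6.57% [4.16 to 9.77]) and 4 of 289 in CD94-KO (1.38% [0.378 to 3.51]). The lower share in CD94-KO was seen among T barcodes with 0 or 1 such UMI and not among those with more. The 15 CD94-KO members with NK genes held between 2 and 81 Cd3 UMIs, with a median of 24, and the 11 WT members between 4 and 117, with a median of 27, and 1 CD94-KO member lay at the T threshold of 2. Of these, 10 of 15 in CD94-KO and 4 of 11 in WT had no Cd4, Cd8 or Foxp3 UMI. This split too was chosen after the values had been seen, and T cells with NK receptors, NK cells with Cd3 transcripts and pairs of cells were not told apart.

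**Figure D4:**
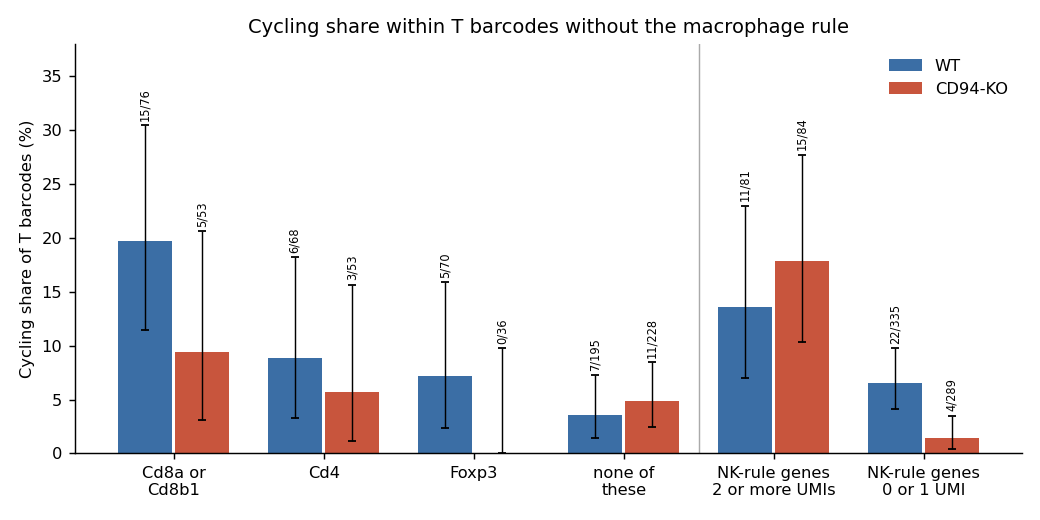
Cycling share of T barcodes that did not meet the macrophage rule, split by co-receptor genes (left) and by UMIs of Ncr1, Klrb1c and Klre1 (right), with 95% Clopper-Pearson intervals and counts. Barcodes with a Foxp3 UMI are drawn under Foxp3 whatever co-receptor genes they carry. Barcodes with both Cd4 and a Cd8 gene but no Foxp3 UMI, of which none was cycling, are left out. T barcodes with 0 or 1 NK-gene UMI have 22 of 335 cycling in WT and 4 of 289 in CD94-KO.

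Cycling T barcodes of CD94-KO (19 members, 307267 UMIs) were compared with those of WT (33 members, 526018 UMIs). Activation and checkpoint genes were lower. Of the 15 genes, 13 had at least 20 UMIs over both libraries, of which 9 were at least 1.5-fold lower and none higher in CD94-KO. Over all 15 genes, 9 were at least 1.5-fold lower and 1 higher. The median difference in log2(CPM + 5) was -1.20, against 0.02 over all 4528 genes. Of those genes 14.1% were at least 1.5-fold lower and 14.3% higher. Tnfrsf4, the co-stimulatory receptor OX40, had 656 CPM in WT and 166 in CD94-KO, a ratio of 0.253 [0.185 to 0.340], with 51.0% of the CD94-KO UMIs in 1 barcode. Ctla4, an inhibitory receptor, had 243 and 68.3 CPM (0.281 [0.168 to 0.448]), and Pdcd1, which encodes PD-1, 312 and 111 CPM (0.355 [0.238 to 0.516]). Lag3 had 119.8 and 39.1 CPM, Icos 329 and 139.9 CPM and Tox, a factor of exhausted T cells, 47.5 and 13.02 CPM. Pdcd1 was detected in 20 of 33 WT and 6 of 19 CD94-KO members. In T barcodes with no Mki67 or Top2a UMI, Pdcd1 stood at 196 and 166 CPM and Ctla4 at 294 and 232 CPM, so the libraries lay nearer to each other there. Among members with at least 2 UMIs of Ncr1, Klrb1c and Klre1 the list summed to 2363 CPM in 11 WT and 1824 CPM in 15 CD94-KO members. Among members with fewer such UMIs it summed to 4291 CPM in 22 WT and 1690.5 CPM in 4 CD94-KO members, against 3527 and 1806 CPM over all members. In the members with fewer than 2 such UMIs Pdcd1 stood at 340.2 CPM in 22 WT and 49.7 CPM in 4 CD94-KO members, the latter from 2 UMIs.

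NK genes were higher in the same barcodes, as the count of members with such genes implies. Of the 11 NK markers, 9 had at least 20 UMIs, of which 5 were at least 1.5-fold higher and none lower in CD94-KO (median 0.94). Over all 4528 genes, 14.3% were higher and 14.1% lower. The marker list includes Ncr1, Klrb1c and Klre1, by which the members had been split. Eomes, a transcription factor of NK and memory T cells, had 20.9 CPM in WT and 127 in CD94-KO, a ratio of 6.07 [3.05 to 13.1]. Klra7, a Ly49 receptor, had 55.1 and 309 CPM (5.61 [3.67 to 8.82]). Tyrobp, which encodes the signalling adaptor DAP12, had 243 and 729 CPM and was detected in 17 of 33 WT and 17 of 19 CD94-KO members. Xcl1, a chemokine that attracts dendritic cells, had 608 and 2353 CPM, with 45.3% and 46.9% of its UMIs in 1 barcode. Cd8b1 had 281 and 94.4 CPM, and Foxp3 24 UMIs in WT and none in CD94-KO. Gzmf, a granzyme, had 382 UMIs in WT, 55% of them in 1 barcode, and none in CD94-KO.

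Of the cycle lists, the mitotic and histone genes stood higher in CD94-KO cycling T barcodes. Of 45 G2/M-list genes with at least 20 UMIs, 21 were at least 1.5-fold higher and 1 lower (median 0.46). Of 17 histone genes, 10 were higher and none lower (median 0.68). Of 42 S-list genes, 7 were higher and 4 lower (median 0.19). The shares over all 4528 genes were 14.3% higher and 14.1% lower. Over all listed genes, 32 of 73 G2/M genes were at least 1.5-fold higher and 8 lower, and 12 of 22 histones were higher and none lower. Ccnb2, a mitotic cyclin, had 49.4 CPM in WT and 149.7 in CD94-KO (3.03 [1.83 to 5.10]) and Cenpf, a kinetochore protein, 26.6 and 74.9 CPM. Hist1h2ae had 469.6 and 853 CPM. Tyms went the other way, with 209 and 101 CPM. CD94-KO T members also had more Mki67 and Top2a UMIs, with a median of 9 against 4. At 6 or more such UMIs in both libraries, an alternative added after the data had been seen, the G2/M median was 0.15 and the S median -0.12. With barcodes of 2 lineage rules counted too, the G2/M median was 0.13.

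Cycling NK barcodes of CD94-KO (12 members, 263487 UMIs) had more S-phase and fewer mitotic transcripts than those of WT (16 members, 384585 UMIs). Of 41 S-list genes, 12 were at least 1.5-fold higher and 2 lower (median 0.33), and of 43 G2/M-list genes 4 were higher and 11 lower (median -0.20). Over all 3641 genes, 16.4% were higher and 10% lower, with a median of 0.09. Pcna had 255 CPM in WT and 409.9 in CD94-KO, a ratio of 1.61 [1.21 to 2.14], and Mcm3, another helicase subunit, 143 and 224 CPM. Uhrf1, which keeps DNA methylation through replication, had 72.8 and 133 CPM. Ube2c, a ubiquitin-conjugating enzyme of the anaphase-promoting complex, had 179 and 37.95 CPM, a ratio of 0.212 [0.0971 to 0.413], and Cenpf 80.6 and 30.4 CPM. Tubb5, a tubulin, had 1363 and 918 CPM. At 6 or more Mki67 and Top2a UMIs the G2/M median was 0.02 and the S median 0.59. The S median was 0.05 with barcodes of 2 lineage rules counted too and 0.12 with each barcode weighed the same.

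Effector genes of cycling NK barcodes went both ways, and several values rested on single barcodes. Of 14 cytotoxic effector genes with at least 20 UMIs, 5 were at least 1.5-fold higher and 1 lower in CD94-KO (median 0.20), against 16.4% higher and 10% lower over all genes. Gzmb, granzyme B, had 749 CPM in WT and 3435 in CD94-KO, but 1 barcode held 62.4% of the CD94-KO UMIs. Ifng had 98.8 and 421 CPM, with 92.8% of the CD94-KO and 60.5% of the WT UMIs in 1 barcode each. Prf1, perforin, had 218 and 361 CPM (1.65 [1.22 to 2.24]), with 36.8% in 1 CD94-KO barcode. Gzma had 2002 and 3339.8 CPM. Gzmc, the most abundant granzyme, had 8630.1 and 8277 CPM, and Gzme 692 and 125 CPM, with 66.9% and 63.6% in 1 barcode. Macrophage programme genes summed to 4829 CPM in WT and 888 in CD94-KO cycling NK barcodes, against 3422 and 4705 CPM in NK barcodes with no Mki67 or Top2a UMI, and their part in these ratios was not tested.

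Cycling macrophages of CD94-KO (26 members, 478013 UMIs) had fewer cycle transcripts of both stages than those of WT (23 members, 476366 UMIs). Of 24 S-list genes with at least 20 UMIs, 15 were at least 1.5-fold lower and none higher (median -0.70). Of 33 G2/M-list genes, 14 were lower and 3 higher (median -0.44). Over all 5107 genes, 12.6% were lower and 11.7% higher, with a median of -0.0044. Mcm5, a helicase subunit, had 98.7 CPM in WT and 29.3 in CD94-KO, Rrm2, a subunit of ribonucleotide reductase, 48.3 and 6.28 CPM, Cdk1 48.3 and 12.6 CPM and Smc2, a condensin subunit, 132 and 46.0 CPM. At 6 or more Mki67 and Top2a UMIs the medians were -1.04 and -0.83, and with barcodes of 2 lineage rules counted too the S median was -0.40. Some CD94-KO members with 6 or more such UMIs still held few other cycle transcripts. The lowest had 3.49 G2/M-list UMIs per 10000, below the median of 6.92 in CD94-KO macrophages with 0. In WT the lowest had 22.7. The part of such members in the list medians was not tested. Only 1 of the 26 CD94-KO members had 12 or more Mki67 and Top2a UMIs, against 4 of 23 in WT. Rrm2 was detected in 5 WT and 3 CD94-KO members.

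Chemokines were among the genes with the largest differences between cycling macrophages. Higher in CD94-KO were Cxcl1, Ccl24, Ccl12, Gzmc, Cd24a, Ly6c2, Ccl3 and Chil3. Lower were Ccl17, Ccr7, Cd63, Mcm5, Iigp1, Gadd45g, Smc2 and Itgax. Cxcl1, a neutrophil attractant, had 1 UMI in WT and 226 UMIs in 10 barcodes in CD94-KO, a ratio of 225 [40.0 to 8935]. Macrophages with no Mki67 or Top2a UMI held 114 CPM in WT and 135 CPM in CD94-KO, so the WT members stood below and the CD94-KO members above the rest of their lineage. Ccl24, an eosinophil attractant, had 8.40 CPM in cycling WT and 868 in cycling CD94-KO macrophages, and 200.3 and 872 CPM in the others. Ccl17, an attractant of T cells that is made by dendritic cells and some macrophages, had 823 CPM in WT, in 5 barcodes, and 12.6 CPM in CD94-KO. The other macrophages held 136 and 121 CPM of Ccl17, between those values. Ly6c2, a monocyte marker, had 197 and 684 CPM, against 691 and 988 CPM in the others. Cd63 had 168 and 50.2 CPM. For Gzmc, 89.9% of the CD94-KO UMIs, and for Ccr7, 69.1% of the WT UMIs, came from 1 barcode. Of the macrophage programme genes, Arg1, arginase 1, had 1723 and 3038 CPM (1.76 [1.62 to 1.92]) and Mrc1, the mannose receptor CD206, 149 and 358 CPM (2.40 [1.81 to 3.21]).

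**Figure D5:**
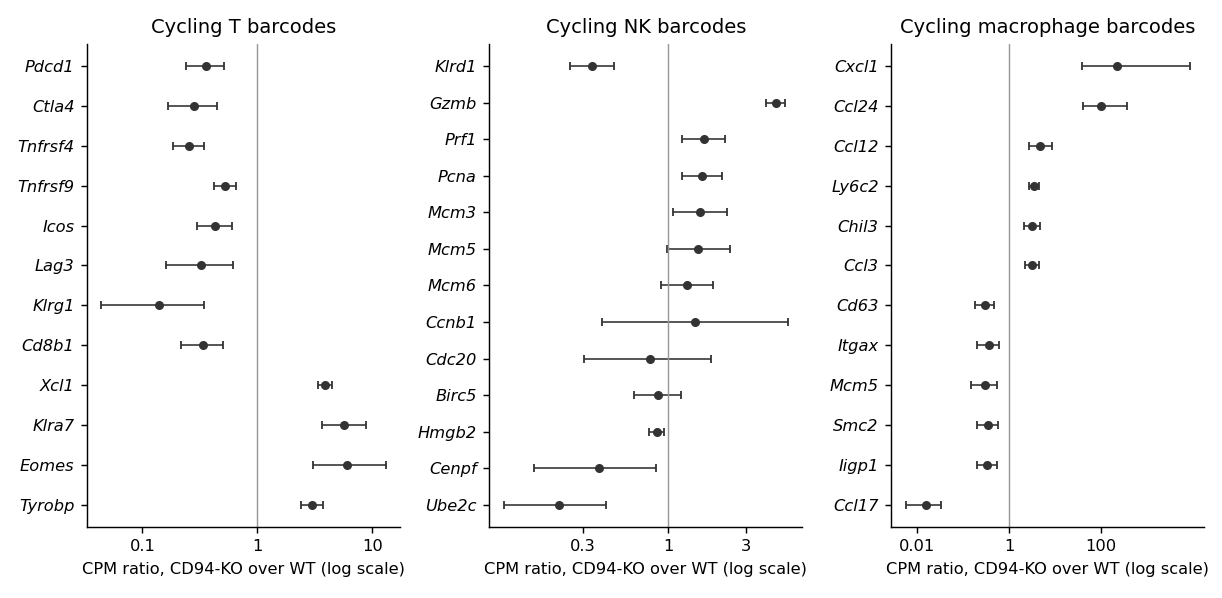
CPM ratio of CD94-KO over WT in cycling barcodes of 1 lineage rule, with exact 95% intervals for counting error, on a log axis that differs between panels. Checkpoint genes lie below 1 and NK genes above 1 in T barcodes, in NK barcodes Pcna and Mcm3 lie above 1 and Klrd1, Ube2c and Cenpf below while the intervals of Mcm5, Mcm6, Ccnb1, Cdc20 and Birc5 include 1, and in macrophages Cxcl1 and Ccl24 lie far above 1 and Ccl17 far below.

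The remaining cycling barcodes met no lineage rule, 15 in WT and 16 in CD94-KO. Cd74 and H2-Ab1, genes of antigen presentation by MHC class II, had 5250.45 and 3498 CPM in WT and 9206 and 6661 CPM in CD94-KO, and Cd74 was detected in 15 of 15 and 15 of 16 barcodes. Monocyte markers were present (at least 3 of the 10) in 9 WT and 10 CD94-KO barcodes, dendritic cell markers of the cDC1 list in 4 and 5, of the cDC2 list in 3 and 5 and of mature regulatory dendritic cells in 4 and 3, NK markers in 2 and 5, and fibroblast markers in 4 and 0. The monocyte markers summed to 633 CPM in WT and 1866 CPM in CD94-KO, far below the 7981 and 8645 CPM of barcodes with no lineage and no Mki67 or Top2a UMI. At least 3 markers of the B and plasma cell list were present in 1 WT and 1 CD94-KO barcode. The largest sum of that list in a barcode was 668 UMIs in WT and 69 in CD94-KO. Cd79a, a B cell gene named after the values had been seen, had 4 UMIs in 1 WT barcode and 28 UMIs in 1 CD94-KO barcode. Neutrophil markers were present in none by the same count.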

How the data were processed

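Live CD45+ cells from subcutaneous tumours were measured as 1 WT and 1 CD94-KO library. The deposited files hold whole-number UMI counts per gene and barcode, and the matrices were written by Cell Ranger 5.0.0 (per the file headers). The chemistry was 10x Genomics 3′ v2, per the labels' protocols. The names Seurat 4.0 and mm10 come from the submitters' processing notes, which attach them to no step here. The libraries held 40261366 (WT) and 46107433 (CD94-KO) UMIs, with medians of 2820.5 and 7244 per barcode.

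Barcodes with at least 1000 UMIs and under 10% mitochondrial UMIs numbered 3211 and 4431, of which 2791 and 4083 met the immune rule. Counts were summed per library over barcodes that met 1 lineage rule and divided by the summed total (CPM). Genes with at least 20 UMIs over the barcodes compared were used for list medians of log2(CPM + 5), and 1.5-fold was the size that counted as higher or lower. Ratios have exact conditional binomial intervals, shares Clopper-Pearson intervals, and ratios of shares log-scale intervals, all at 95% and for counting error only. No test was run. No doublet caller was run, so pairs of cells remain among the barcodes. The 36 gene lists held 513 symbols, of which 504 were found as written, 4 under an older symbol and 5 were not used. The members and lists were chosen with earlier results of these data known. Named genes were Klrd1 and the rule genes, for each list up to 4 members with the most UMIs and those past 1.5-fold, and for macrophages the 8 genes with the largest ratio each way and the 10 genes off the cycle lists with the largest excess in cycling barcodes. Alternatives changed the thresholds, depth, pseudocount, count filter, scaling (TMM, edgeR 4.0.16) and weighting. Scripts were tested on simulated data and used Python 3.11.15, numpy 2.4.6, scipy 1.17.1, matplotlib 3.10.9 and R 4.3.3. Promoters came from RefSeq (GRCm38.p6).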

Additional observations from a re-analysis of the deposited data

Results flagged for a closer look

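Barcodes outside the immune rule, with 20 or more UMIs of Col1a1, Col1a2, Col3a1 and Sparc or with no Ptprc UMI, entered no comparison, yet many carried Mki67 and Top2a. In WT, 83 of 420 such barcodes had at least 3 UMIs of the pair, 19.8% [16.1 to 23.9]. In CD94-KO, 33 of 348 did, 9.48% [6.62 to 13.1]. These cycling barcodes were deep, with medians of 52610.0 UMIs in WT and 54609 in CD94-KO, and held medians of 53 and 75 collagen and Sparc UMIs. Their Mki67 and Top2a UMIs had medians of 24 and 30, against 5 and 5 in the immune members. The lower CD94-KO share was thus also present outside the immune rule.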

How the results depend on the processing

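The files hold 1 library per genotype, so no replicate could be left out. No paired analysis was possible because each group has 1 library. Of the alternatives for the share ratios, 34 stayed within the main value's spread and 2 moved: 0.988 for T at a threshold of 2 UMIs per 10000, and 0.228 for macrophages thinned to 5000 UMIs. For the S percentages 13 stayed and 11 moved, for list medians between libraries 40 and 14, and for list medians within a library 70 and 38. TMM moved the median of all genes by 0.14 in cycling NK barcodes between libraries and by 0.16 in cycling against other macrophages of each library. Spread between mice is not covered, and depth limits genes with few UMIs.

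The S percentage was 40.9 (WT) and 39.0 (CD94-KO) in T barcodes at 5 or more Mki67 and Top2a UMIs. With barcodes of 2 lineage rules it was 40.3 (WT) and 38.02 (CD94-KO) in macrophages. As a median over barcodes it was 22.1 in WT macrophages, 45.7 in WT NK and 55.8 in CD94-KO NK barcodes. Without the 4% of barcodes with most UMIs it was 35.1 in CD94-KO T, 39.5 in WT macrophage, 43.4 in WT NK and 53.05 in CD94-KO NK barcodes.

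Between libraries, the G2/M median with a minimum of 100 UMIs was -0.19 in macrophages and 0.19 in T barcodes. With barcodes of 2 lineage rules the S median was -0.40 in macrophages and 0.052 in NK, and the G2/M median -0.49 in NK and 0.13 in T barcodes. With each barcode weighed the same the NK S median was 0.12. At 6 or more Mki67 and Top2a UMIs, added after the data had been seen, the S median was -0.12 in T and 0.59 in NK, and the G2/M median -0.83 in macrophages, 0.019 in NK and 0.15 in T barcodes. Without the 4% of barcodes with most UMIs the S median was -0.17 in T barcodes and -1.07 in macrophages. The sign of the T S median therefore depends on these choices, and the cause was not tested.

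Within a library, cycling against other, a minimum of 1 UMI gave G2/M medians of 1.23 in CD94-KO macrophages and 2.36 in WT NK. A minimum of 100 UMIs gave G2/M medians of 0.87 and 1.29 (CD94-KO and WT macrophages), 0.94 and 0.97 (WT and CD94-KO T), 1.37 and 1.64 (CD94-KO and WT NK). It gave S medians of 1.23 (CD94-KO T), 1.32 (WT NK) and 1.92 (CD94-KO NK). Barcodes of 2 lineage rules gave G2/M medians of 1.15 (CD94-KO macrophages), 1.78 (CD94-KO T) and 1.97 (CD94-KO NK), and an S median of 1.58 (WT T). At 6 or more Mki67 and Top2a UMIs the S medians were 2.42 (WT macrophages) and 2.52 (WT T), and the G2/M medians 3.11 (WT T) and 3.15 (WT macrophages). A pseudocount of 1 CPM gave S medians of 1.82 (CD94-KO macrophages) and 2.46 (WT T), and G2/M medians of 2.52 (CD94-KO macrophages), 2.87 (WT T), 3.26 (WT macrophages) and 3.70 (WT NK). A pseudocount of 20 CPM gave S medians of 0.47 and 0.998 (CD94-KO and WT macrophages), 1.23 and 1.74 (WT and CD94-KO NK), 1.38 and 1.39 (WT and CD94-KO T). It gave G2/M medians of 0.80 and 1.26 (CD94-KO and WT macrophages), 1.40 and 1.64 (WT and CD94-KO T), 1.80 and 1.88 (CD94-KO and WT NK). Without the 4% of barcodes with most UMIs the G2/M median was 1.9999 in CD94-KO NK. All of these stayed above 0.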

Other observations

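With barcodes that also met the macrophage rule counted in, T barcodes with at least 2 UMIs of Ncr1, Klrb1c and Klre1 had 22 of 149 cycling in WT (14.8% [9.49 to 21.5]) and 23 of 125 in CD94-KO (18.4% [12.04 to 26.3]). T barcodes with 0 or 1 such UMI had 40 of 480 (8.33% [6.02 to 11.2]) and 10 of 404 (2.48% [1.19 to 4.50]). Of T barcodes with Foxp3, 15 of 122 were cycling in WT (12.3% [7.05 to 19.5]) and 2 of 68 in CD94-KO (2.94% [0.358 to 10.2]).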
